A study of Mus musculus with 59 samples.

Results

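The 10 genes Retreg3, Copg2, Acad9, Scly, Marveld1, Dnajc22, Sbk1, Chtf8, Fam91a1 and Dennd5b were chosen by the values of their probe sets in E2F3b knock-in liver, which lay far from those of the other livers of the same normalization. They were taken by symbol from probe sets annotated to exactly 1 gene, which gave 24 of 34945 probe sets and 10 of 18193 genes, and no symbol was absent. The study measured liver RNA of mice aged 4 weeks, on a mixed background of FVB/NT, 129S1/Svlmj and C57BL/6NT, with an Affymetrix mouse array. There were 12 arrays of wild-type liver (wt), 10 of the E2f3a knock-out (3aKO), 5 of the E2f3b knock-in (3bKI) and 10 of the E2f1 knock-in (1KI). No source used here gives the locus of a knock-in or whether each array is a different animal, so p-values measure only the spread between arrays, which may be technical. Sex is not labelled, and an index of it from Xist and Y-linked genes is given below. The deposited values are log2 expression values in 2 separate normalizations. In the first are the arrays of 1KI with wt and 3aKO. The second has 3bKI beside the wt and 3aKO arrays of the first, so 1KI and 3bKI were never compared directly.

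E2F proteins are transcription factors that bind DNA with a DP partner and are known for the control of genes of DNA replication and the cell cycle. E2f3 encodes the isoforms E2F3a and E2F3b from separate promoters. The 10 genes do not belong to 1 pathway. Retreg3 encodes a reticulon-like receptor for the selective autophagy of endoplasmic reticulum, Copg2 a gamma subunit of the COPI vesicle coat, Fam91a1 a partner of TBC1D23 in the capture of vesicles at the trans-Golgi, Dennd5b a DENN domain protein of a family that activates Rab GTPases, and Marveld1 a membrane protein with a MARVEL domain. Acad9 encodes a mitochondrial acyl-CoA dehydrogenase that also serves the assembly of respiratory complex I, and Scly encodes selenocysteine lyase, which frees selenium from selenocysteine for reuse. Sbk1 encodes a serine/threonine kinase, Dnajc22 a J-domain co-chaperone, and Chtf8 a subunit of the CTF18 clamp loader, which acts in sister chromatid cohesion and DNA replication. By RefSeq the genes lie on 8 chromosomes, and 0 of them on chromosome 13, which carries E2f3.

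Because the altered alleles encode E2F proteins, the promoters were searched for E2F-type words. RefSeq promoter windows of 300 bases (GRCm38.p6) were at hand for 6 of the 10 genes, namely Retreg3, Copg2, Dennd5b, Marveld1, Scly and Chtf8. The words TTTCCCGC, TTTCGCGC, TTTGGCGC and TTTGCCGC, on both strands, occurred in 0 of these 6 windows and in 2.26% of all 32851 windows. The same words without their first T, which lie inside the longer ones, occurred in 1 of the 6 (Scly) and in 9.57% of all windows. A match is a description of letters and not a measured site. The Scly match is shown in a stretch of 30 bases on the + strand, chr1:91298283-91298312, 44 bases before the start site of the window. Its capitals mark the reverse complement of TTTCGCGC without its first T. The sequence upstream of every annotated start of Scly ends at chr1:91298294, so the match runs past it into the annotated gene. The upstream sequence of Retreg3, the gene with the widest separation, lies at chr11:101119842-101120091 on the - strand, and that of Chtf8, which was higher in 3bKI where most of the genes were lower, lies at chr8:106893594-106893843 on the - strand. Both are in lower case throughout, since none of these words occurs in them, and they hold 33 and 28 CG dinucleotides.
Scly: gattggccaaaGCGCGAAgcgcagccaatg
Retreg3: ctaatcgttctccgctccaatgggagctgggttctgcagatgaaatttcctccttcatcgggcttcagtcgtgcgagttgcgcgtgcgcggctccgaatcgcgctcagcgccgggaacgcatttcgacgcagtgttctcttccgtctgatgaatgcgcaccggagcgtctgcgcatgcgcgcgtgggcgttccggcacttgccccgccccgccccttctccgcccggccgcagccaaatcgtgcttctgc
Chtf8: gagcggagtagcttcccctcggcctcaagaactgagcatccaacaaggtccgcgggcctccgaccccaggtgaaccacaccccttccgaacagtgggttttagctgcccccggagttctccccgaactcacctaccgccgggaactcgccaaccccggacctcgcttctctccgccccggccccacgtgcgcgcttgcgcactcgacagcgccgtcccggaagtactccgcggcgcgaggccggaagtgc

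The knock-in arrays differed from most others in signals that are not liver genes. Of the 12 wt arrays, arrays 1 and 2 shared the high level of the spiked-in hybridization controls seen on all 3bKI and all 1KI arrays, and the other 10 wt arrays and all 10 3aKO arrays were lower. The mean level was 11.6 (11.2 to 11.9) in 3bKI, 10.4 in wt and 10.2 in 3aKO of the second normalization, and 11.3 in 1KI. The poly-A controls read 13.8 on every 3bKI array against means of 9.04 in wt, 8.75 in 3aKO and 9.42 in 1KI. RNA integrity was read as the value of 3′ minus 5′ control probe sets for Gapdh and Actb. It was 0.275 to 0.36 in 3bKI against 0.475 to 0.65 (mean 0.559) in wt and 0.545 to 0.755 in 3aKO, without overlap. On this measure 1KI array 6 stood apart at 1.75. The sex index, the signal of Xist minus that of Y-linked genes, was high on some arrays of every group and low on others. Over the 3bKI arrays it ran from -0.60 to 9.36. On wt arrays 1 and 2 it was low (-0.52 and -0.68), so comparisons with these 2 arrays alone do not balance it. The summed level of 10 hepatocyte markers had a median of 17.7 in every group, a sum led by very bright genes such as Alb (mean 15.0 in wt), near the top of the measured range. Of the 10, 0 passed limma's test in 3bKI against wt (2 at an unadjusted p under 0.05), 1 was lower in 3bKI against 3aKO, and 1 was higher in 1KI against wt and 1 against 3aKO. In 3bKI against wt 14.5% of all probe sets were called higher and 15.7% lower, and 13676 of 34945 had an unadjusted p under 0.05. Of the markers of other cell types, the stellate and fibroblast list had 1 higher and 3 lower of 8 (5 at an unadjusted p under 0.05), and the Kupffer list had 2 higher of 10 (7 unadjusted, median difference 0.24). The endothelial list had 1 higher of 8 (2 unadjusted), the cholangiocyte list 1 of 5 (2), the lymphocyte list 2 of 8 (3), the erythroid list 1 of 3 (1) and the neutrophil list 0 of 6 in limma's test (2). The part of these cell types in the results was not tested. In whole liver, fewer cells of a type and less RNA per cell cannot be told apart. The probe sets of E2f3 and E2f1 are no check of the labels here, since no source used here says where they lie relative to the altered exons.

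In 3bKI livers 8 of the 10 genes were lower than in wt and 3aKO and 2, Scly and Chtf8, were higher. These differences chose the genes, so they are given as a description with no test. For each gene the probe set with the strongest difference from wt is called its leading probe set. Ranked by the size of limma's moderated t among 34945 probe sets in 3bKI against wt, the 10 leading probe sets stood between rank 1 (Retreg3) and rank 27 (Dennd5b). On each of the 10, the 5 arrays of 3bKI overlapped neither the wt nor the 3aKO arrays. Over all probe sets, 3bKI lay below both groups in 3.59% and above both in 2.21%, and 30.2% passed the test against wt (14.5% higher, 15.7% lower) and 34.9% against 3aKO (17.4% higher, 17.5% lower). With array medians set equal, the calls against wt split into 3710 higher and 6979 lower, in place of 5059 and 5487, and those against 3aKO into 4147 and 7671, in place of 6066 and 6116. The leading probe sets were bright, the dimmest at the percentile 78.9 of the wt signal and the median at 87.8.

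**Figure D1:**
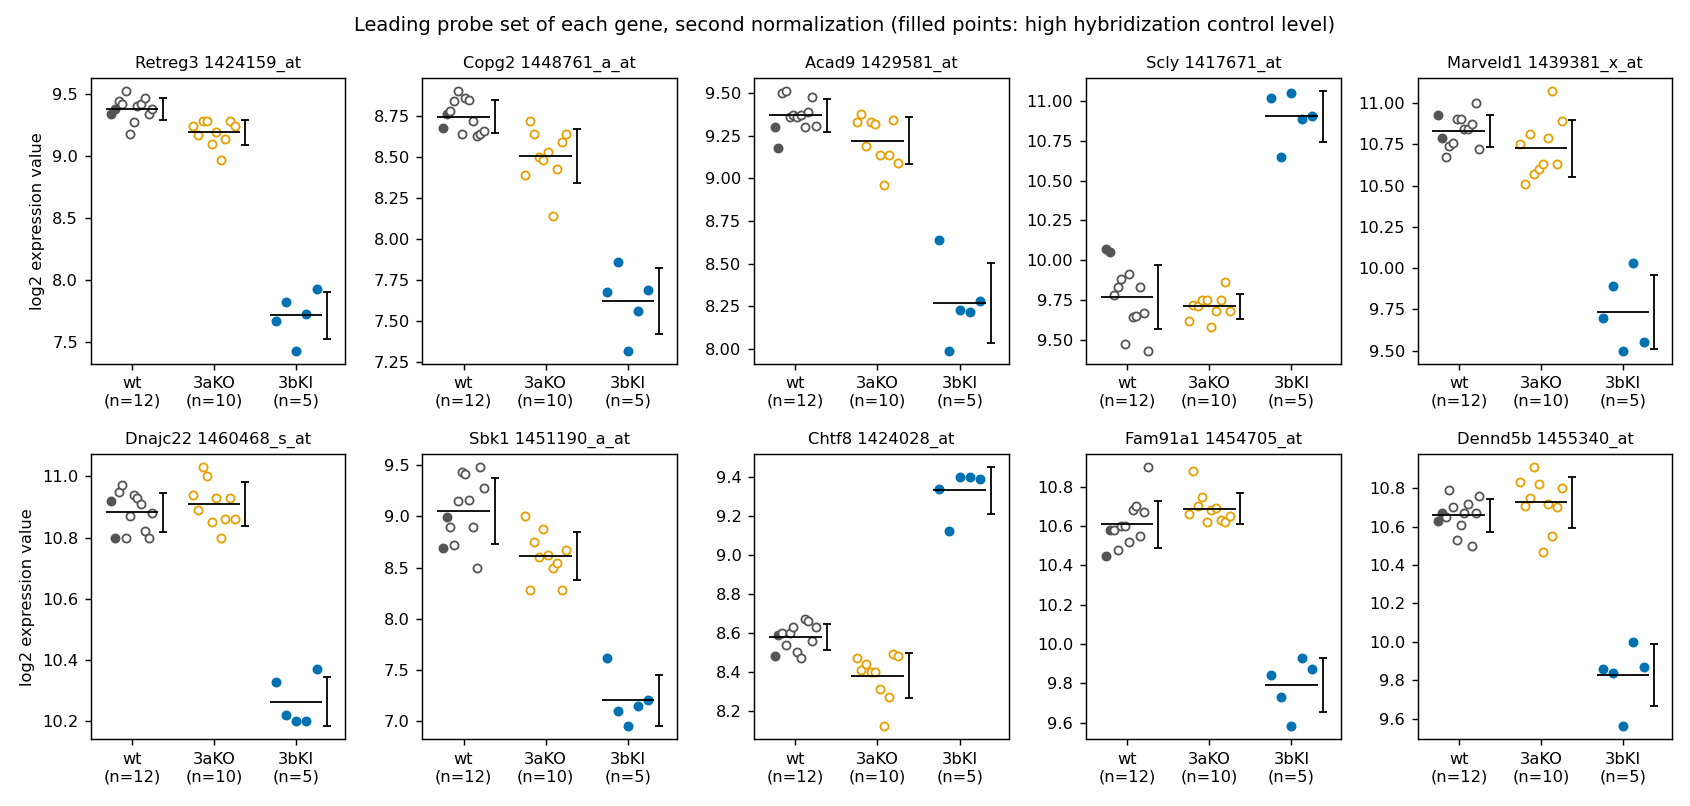
Log2 expression value of the leading probe set of each gene in wt, 3aKO and 3bKI. Each point is 1 array, the line is the group mean and the bar its SD, and filled points are arrays with a high level of the hybridization controls (2 of 12 wt, all 3bKI). The 3bKI points lie apart from both other groups in all 10 panels, above them for Scly and Chtf8 and below them for the other 8 genes.

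Retreg3, the reticulon-like autophagy receptor, had the widest separation. Its probe set 1424159_at read 7.67, 7.82, 7.43, 7.73 and 7.93 in 3bKI arrays 1 to 5, against 9.18 to 9.52 (median 9.39) in wt and 8.97 to 9.28 (median 9.21) in 3aKO. Every 3bKI array was lower than every other array, and 1.04 lay between the nearest arrays of 3bKI and the rest. The difference from wt was -1.66 (SE 0.065), a level 3.17-fold lower, and that from 3aKO was -1.47. Against the 2 wt arrays with the high hybridization control level alone it was -1.64.

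Copg2, the coat subunit, is measured by 1 probe set, 1448761_a_at. It read 7.68, 7.86, 7.32, 7.56 and 7.69 in 3bKI, against 8.63 to 8.90 (median 8.74) in wt and 8.14 to 8.72 (median 8.52) in 3aKO. The 3bKI arrays were again the lowest, but here the nearest 3aKO array was only 0.28 above them, the narrowest such gap of the 10. The difference was -1.12 (SE 0.078) from wt, -0.88 from 3aKO and -1.10 from the 2 wt arrays of the high level.

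Fam91a1, the trans-Golgi tethering partner, read 9.84, 9.73, 9.58, 9.93 and 9.87 in 3bKI with 1454705_at, against 10.45 to 10.90 (median 10.59) in wt and 10.62 to 10.88 (median 10.67) in 3aKO. All 5 arrays were lower than both groups, by -0.82 (SE 0.063) from wt and -0.90 from 3aKO. Dennd5b, the DENN domain protein, was lower by a like amount. Its 1455340_at read 9.86, 9.84, 9.56, 10.00 and 9.87, against 10.50 to 10.79 (median 10.67) in wt and 10.47 to 10.91 (median 10.73) in 3aKO, with differences of -0.83 (SE 0.066) and -0.90. The 2 wt arrays of the high level gave -0.73 for Fam91a1 and -0.82 for Dennd5b.

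Marveld1, the MARVEL domain protein, read 9.70, 9.89, 9.50, 10.03 and 9.55 in 3bKI with 1439381_x_at, against 10.67 to 11.00 (median 10.84) in wt and 10.51 to 11.07 (median 10.69) in 3aKO. The 3bKI arrays lay below both groups, by -1.10 (SE 0.081) from wt, -0.99 from 3aKO and -1.13 from the 2 wt arrays of the high level. The suffix _x_at marks a probe set that can also bind other transcripts.

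The mitochondrial and selenium genes differed in opposite directions. Acad9 1429581_at read 8.64, 7.99, 8.23, 8.22 and 8.28 in 3bKI, against 9.18 to 9.51 (median 9.36) in wt and 8.96 to 9.38 (median 9.26) in 3aKO. All 3bKI arrays were lower, array 1 least, and the difference was -1.10 (SE 0.077) from wt and -0.95 from 3aKO. Scly 1417671_at read 11.02, 10.65, 11.05, 10.89 and 10.91 in 3bKI, against 9.43 to 10.07 (median 9.80) in wt and 9.58 to 9.86 (median 9.71) in 3aKO. Here every 3bKI array was higher, by 1.14 (SE 0.084) from wt and 1.19 from 3aKO. The 2 wt arrays of the high level, at 10.07 and 10.05, were the highest of the wt group, and the difference from them was 0.84. For Acad9 the same 2 arrays were at 9.30 and 9.18 and gave -0.97.

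Sbk1, the kinase, had the largest difference from wt of the 10 leading probe sets. Its 1451190_a_at read 7.62, 7.10, 6.95, 7.15 and 7.21 in 3bKI, against 8.50 to 9.48 (median 9.07) in wt and 8.28 to 9.00 (median 8.61) in 3aKO. The 3bKI arrays lay below both groups, which themselves spread more widely than for any other leading probe set. The difference was -1.84 (SE 0.14) from wt, a level 3.59-fold lower, -1.41 from 3aKO and -1.63 from the 2 wt arrays of the high level.

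Dnajc22, the J-domain protein, had the smallest difference and the smallest error of the 10. Its 1460468_s_at read 10.33, 10.22, 10.20, 10.20 and 10.37 in 3bKI, against 10.80 to 10.97 (median 10.89) in wt and 10.80 to 11.03 (median 10.91) in 3aKO. The 3bKI arrays were lower than both by -0.62 (SE 0.047) and -0.65, and lower by -0.60 than the 2 wt arrays of the high level. Chtf8, the clamp loader subunit, is measured by 1 probe set, 1424028_at. It read 9.34, 9.12, 9.40, 9.40 and 9.39 in 3bKI, against 8.47 to 8.67 (median 8.60) in wt and 8.12 to 8.49 (median 8.40) in 3aKO. All 3bKI arrays were higher, by 0.75 (SE 0.058) from wt, 0.95 from 3aKO and 0.80 from the 2 wt arrays of the high level. The part of the hybridization control level, the poly-A controls and RNA integrity in the 10 differences was not tested. With RNA integrity as a covariate the probe sets called in 3bKI against wt went from 10546 to 1151. The integrity values of 3bKI overlapped neither wt nor 3aKO, so that covariate and the genotype can hardly be told apart. In the alternative fits with all 3bKI arrays, that of RNA integrity included, the leading differences from wt kept their sign for all 10 genes. They were -1.71 to -1.50 for Retreg3, 0.84 to 1.19 for Scly and 0.67 to 0.80 for Chtf8.

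The other probe sets of a gene mostly had smaller differences. Of the 10 genes, 8 have several probe sets, and all 14 others had the sign of the leading one in 3bKI against wt, 10 of them with under 50% of its log2 difference. The differences of Acad9 1444394_at, Retreg3 1447884_x_at and Marveld1 1436830_at were within their errors, so their signs say little. The share ran from 1.52% to 132%. Of the 14, 4 come from the GenBank record of the leading probe set. Their shares were 24.7% (Acad9), 26.8% (Sbk1), 66.3% (Fam91a1) and 90.3% (Dnajc22). On 8 of the 14 the value of the leading probe set minus that of the other, within an array, did not overlap between 3bKI and wt. The leading probe set was taken for its larger t, so smaller differences on the others follow in part from that choice, and they are a description.

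For Retreg3, 1431926_a_at read 7.70, 8.08, 7.69, 7.85 and 7.91 in 3bKI against 8.10 to 8.52 in wt, a difference of -0.47 (SE 0.071), and overlapped the 3aKO arrays at 7.94 to 8.22. The value of 1424159_at minus that of 1431926_a_at was 0.86 to 1.38 on wt arrays and -0.26 to 0.02 on 3bKI arrays. The dim 1447884_x_at, at the percentile 8.78 of the wt signal, differed by -0.09 (SE 0.099), which is within its error. For Acad9, 1453206_at was designed from the same GenBank record as the leading probe set, yet it differed by -0.27 (SE 0.072), 24.7% of the leading value. Its 3bKI arrays read 8.45 to 8.79 and overlapped wt at 8.69 to 9.06. The dim 1444394_at of Acad9 differed by -0.02 (SE 0.086).

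Sbk1 has a further probe set, 1423978_at, which also comes from the GenBank record of its leading probe set. It read 7.78, 7.97, 7.55, 7.39 and 7.18 in 3bKI, against 7.57 to 8.55 in wt and 7.34 to 7.95 in 3aKO. Its arrays overlapped both groups, with a difference of -0.49 (SE 0.14) from wt and -0.09 (SE 0.14) from 3aKO. For Marveld1, 1433538_at differed from wt by -0.42 (SE 0.083), 1436773_x_at by -0.22 (SE 0.083) and 1436830_at by -0.10 (SE 0.15), all less than the -1.10 of its leading probe set. For Dennd5b, 1443665_at differed by -0.64 (SE 0.10), 76.3% of the leading difference, 1458146_at by -0.31 (SE 0.095) and 1456422_at by -0.29 (SE 0.075).

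Beside Dennd5b 1443665_at, probe sets of 3 more genes had over 50% of the leading difference. Dnajc22 1429773_at read 10.02, 10.00, 10.06, 9.96 and 10.18 in 3bKI against 10.48 to 10.81 in wt and 10.45 to 10.71 in 3aKO. It overlapped neither group, and its difference of -0.56 (SE 0.054) from wt was 90.3% of the leading one. Fam91a1 1433724_at read 8.44, 8.31, 8.19, 8.32 and 8.60 against 8.73 to 9.28 in wt and 8.80 to 9.09 in 3aKO. It too overlapped neither group, with -0.54 (SE 0.069), 66.3% of the leading difference. Scly 1441192_at was the only other probe set with a larger difference than its leading one. It read 7.78, 7.07, 8.16, 7.02 and 7.48 in 3bKI, against 5.12 to 7.34 (median 5.95) in wt and 5.67 to 6.58 in 3aKO. The 3bKI arrays lay above all 3aKO arrays, while 1 wt array reached into them, and the difference from wt was 1.50 (SE 0.22).

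**Figure D2:**
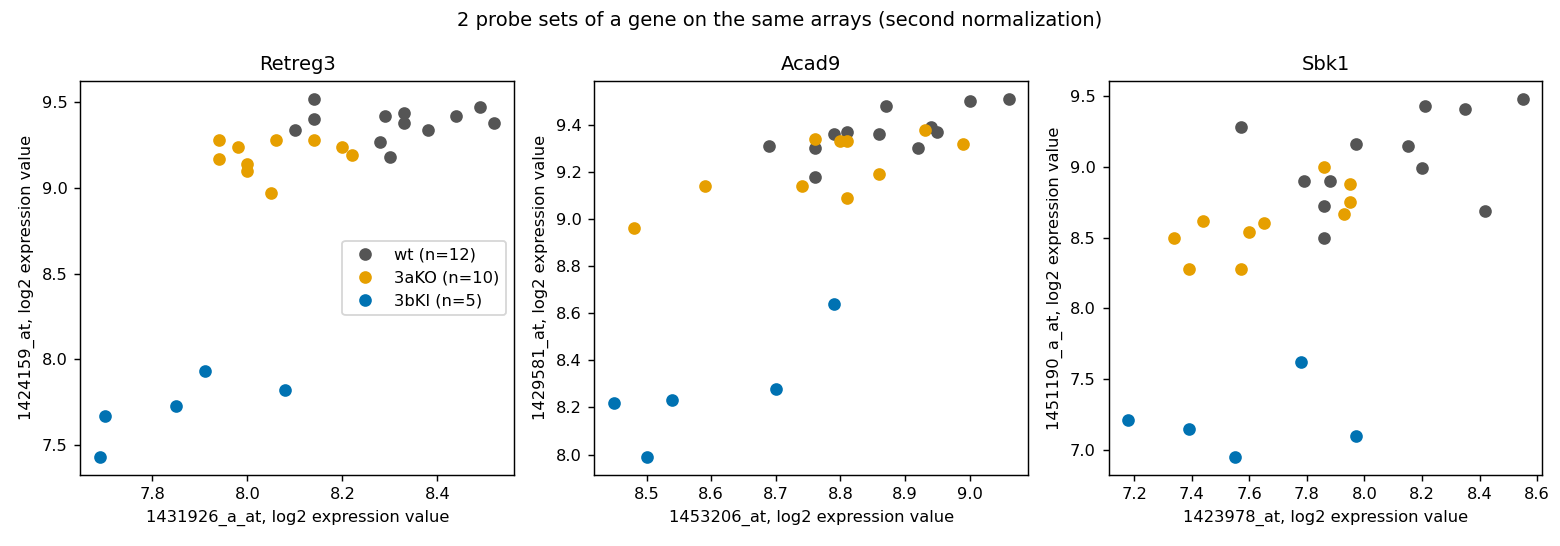
Log2 expression values of 2 probe sets of Retreg3, Acad9 and Sbk1, the leading one on the vertical axis, with 1 point per array of the second normalization. The 3bKI points are set down along the vertical axis and much less along the horizontal one, where for Acad9 and Sbk1 they overlap wt and 3aKO.

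The 1KI arrays took no part in the choice of the genes, and 1KI was tested. The wt and 3aKO arrays did take part. They enter the means and the spread of that test, so its p-values for the members are not free of the choice. In 1KI against wt, 11 of the 24 probe sets passed an adjusted p of 0.05 (limma, Benjamini-Hochberg over 34945 probe sets), 5 higher and 6 lower, in 8 of the 10 genes, and 13 had an unadjusted p under 0.05. Of all 34945 probe sets, 13917 had an unadjusted p under 0.05. Over all probe sets 29.2% passed (12.1% higher, 17.1% lower), and with array medians set equal the 4243 higher and 5976 lower calls became 3724 and 7998, and those of the 24 became 3 higher and 8 lower. Brighter probe sets passed more often, and most of the 24 are bright. With only those above the median signal tested, 7194 passed (2848 higher, 4346 lower), a larger share than over all, and 11 of the members left by that filter. So 29.2% understates the share to set beside the 11 of 24, and no excess among the members is read. The median difference was -0.10 over the 24 probe sets and -0.04 over all. Of the 10 leading probe sets 5 passed, Copg2, Acad9 and Fam91a1 lower and Scly and Dnajc22 higher, by 0.12 to 0.28 in size. The comparisons of 1KI and of 3bKI with wt use the same wt arrays, so their values stand side by side and no agreement between them is read.

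**Figure D3:**
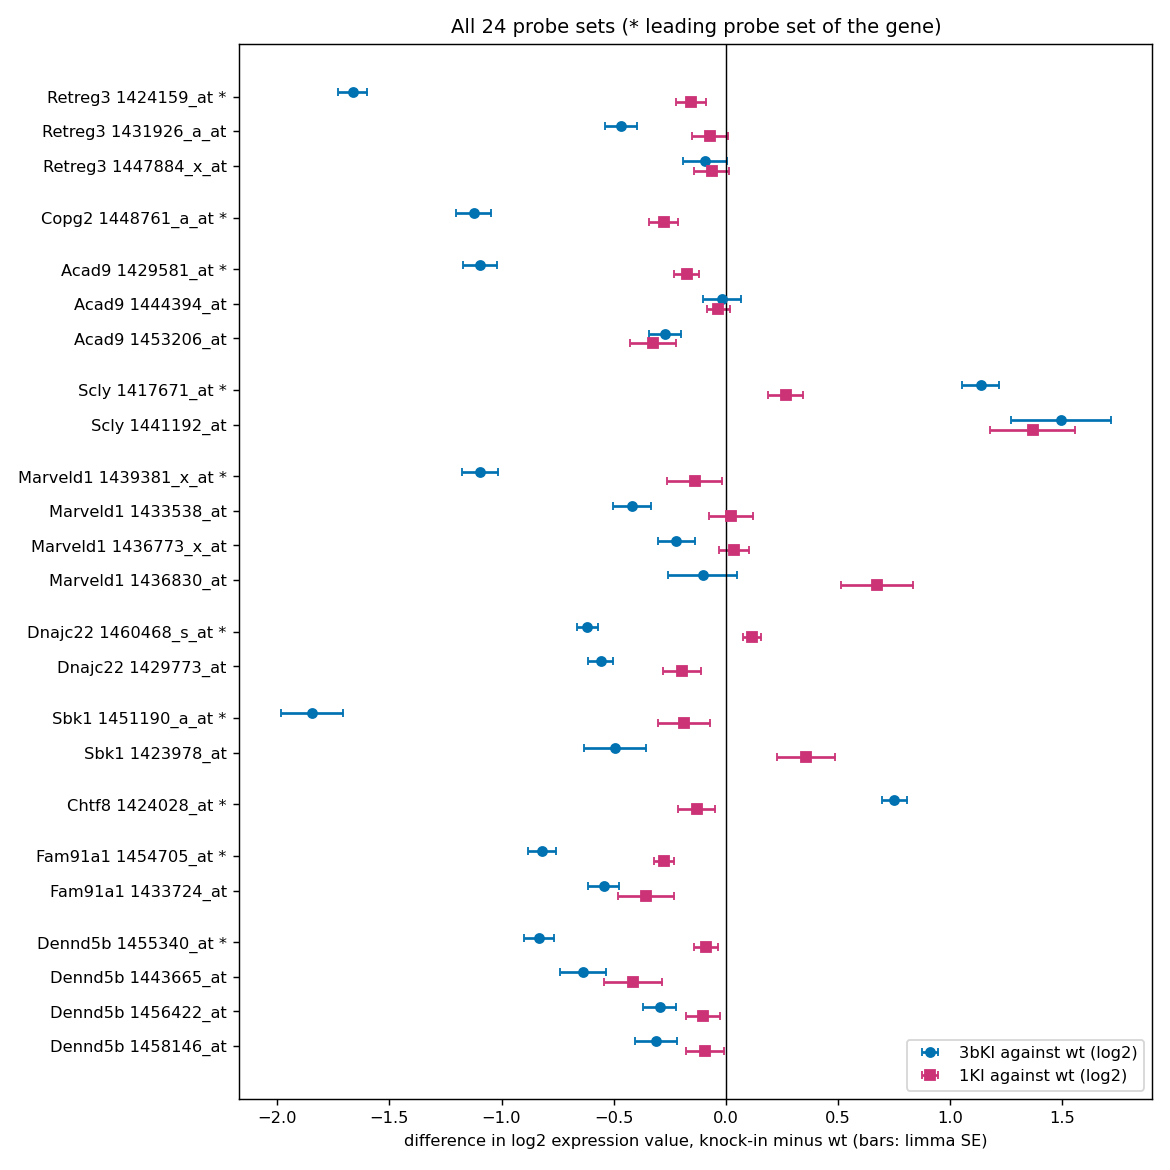
Difference from wt in log2 expression value for all 24 probe sets, in 3bKI (circles, second normalization) and in 1KI (squares, first normalization), with limma's SE as bars. Leading probe sets carry a star. The 2 differences are of like size for Scly 1441192_at (1.50 and 1.37), while for the leading probe sets of Retreg3, Sbk1 and Chtf8 only the 3bKI difference is far from 0.

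Scly had the largest change in 1KI. Its 1441192_at read 6.70 to 8.65 (median 7.33) in the 10 1KI arrays, against 5.14 to 7.37 (median 6.00) in wt and 5.73 to 6.64 (median 6.30) in 3aKO. All 10 1KI arrays lay above every 3aKO array and above the wt mean, with 1 wt array reaching into their range. The probe set rose by 1.37 (SE 0.19, limma adjusted p = 1.91e-06) from wt, 2.58-fold, and by 1.22 (adjusted p = 1.64e-05) from 3aKO. The leading probe set 1417671_at read 9.75 to 10.40 in 1KI against 9.53 to 10.18 in wt, and rose by only 0.27 (limma adjusted p = 0.00878). With a block for the hybridization control level the first was 1.61 (limma adjusted p = 0.00327), while the second was -0.003 (adjusted p = 0.994). On the second, wt arrays 1 and 2 read 10.18 and 10.14, beside a 1KI median of 10.18.

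Marveld1 rose in 1KI on 1 probe set that in 3bKI differed by -0.10 (SE 0.15) from wt and by -0.35 (SE 0.16) from 3aKO. Its 1436830_at read 6.52 to 8.57 (median 6.93) in 1KI, against 5.82 to 6.99 (median 6.45) in wt and 6.18 to 7.02 (median 6.85) in 3aKO. The groups overlapped, but all 10 1KI arrays were above the wt mean. The change was 0.68 (SE 0.16, limma adjusted p = 0.00156) from wt, 1.01 with a block for the hybridization control level (adjusted p = 0.0258) and 0.52 without 1KI array 6, the highest. From 3aKO the difference was 0.36 (limma adjusted p = 0.0955), or 0.20 without 1KI array 6. The leading probe set of Marveld1 ranged from 9.91 to 11.58 in 1KI, around the wt arrays at 10.73 to 11.06, with a difference of -0.14 (limma adjusted p = 0.415).

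Fam91a1 was lower in 1KI on both of its probe sets. The leading 1454705_at read 10.26 to 10.46 (median 10.37) in 1KI against 10.51 to 10.94 (median 10.62) in wt and 10.66 to 10.90 (median 10.71) in 3aKO. The 1KI arrays overlapped neither group, and this was the only one of the 24 probe sets that overlapped neither wt nor 3aKO. Over all probe sets 0.693% lay fully below wt and 0.724% fully above it, and 1.79% lay fully below 3aKO and 2.39% fully above. It fell by 0.28 (SE 0.045, limma adjusted p = 1.75e-05) from wt and by 0.36 (adjusted p = 5.36e-07) from 3aKO. Its 1433724_at fell by 0.36 (limma adjusted p = 0.0308), or by 0.20 without 1KI array 6, which read 7.24 where the other 9 were 8.46 or higher. That call was lost without 1KI array 4 (adjusted p = 0.0538) and without wt array 12 (adjusted p = 0.054).

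Copg2 fell in 1KI as well. It read 8.05 to 8.75 (median 8.57) in 1KI, against 8.71 to 8.97 (median 8.80) in wt and 8.18 to 8.74 (median 8.57) in 3aKO. All 10 1KI arrays and all 10 3aKO arrays were below the wt mean. The change was -0.28 (SE 0.064, limma adjusted p = 0.0014) from wt and -0.01 (adjusted p = 0.908) from 3aKO. Acad9 fell by 0.17 on its leading probe set (limma adjusted p = 0.0177) and by 0.32 on 1453206_at (adjusted p = 0.0155), or by 0.20 without 1KI array 6. In 3bKI the same probe sets differed from wt by -1.10 and -0.27.

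There were calls on 3 further genes, and those of Dnajc22 and Sbk1 were lost on leaving out single arrays. Dnajc22 1460468_s_at was higher by 0.12 (limma adjusted p = 0.0226), where 3bKI was lower, and the call was lost with equal array medians (0.09, adjusted p = 0.0831) and without 1KI array 5 (adjusted p = 0.0534). Sbk1 1423978_at was higher by 0.36 from wt (limma adjusted p = 0.0366), a call lost with equal array medians (0.33, adjusted p = 0.0526) and on leaving out any 1 of 11 of the 22 arrays. These were wt arrays 3, 4, 8, 9, 10 and 12 and 1KI arrays 2, 4, 5, 8 and 9. Without 1KI array 6, at 7.55 where the others were 8.17 or higher, the difference from wt was 0.47. From 3aKO the same probe set rose by 0.76 (SE 0.14, limma adjusted p = 5.56e-05), with 7.55 to 8.90 (median 8.65) in 1KI and 7.47 to 8.10 (median 7.74) in 3aKO, and 9 of 10 arrays above the 3aKO mean. Dennd5b 1443665_at fell by 0.41 from wt (limma adjusted p = 0.0148), or by 0.27 without 1KI array 6, which read 6.71 where the others were 7.90 or higher. With a block for the hybridization control level the call was lost (-0.13, adjusted p = 0.797), and with array 6 left out as well the difference was 0.0206.

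Leading probe sets of 5 genes did not pass in 1KI against wt. Retreg3 1424159_at read 8.71 to 9.50 (median 9.39) in 1KI and 9.27 to 9.63 (median 9.48) in wt, with a difference of -0.16 (limma adjusted p = 0.0777) that passed with equal array medians (-0.18, adjusted p = 0.0432) or without 1KI array 9 (adjusted p = 0.0493). Without 1KI array 6 it was -0.09 (adjusted p = 0.184). The groups overlapped, as they did for the other four. The differences were -0.13 for Chtf8 (limma adjusted p = 0.238), -0.19 for Sbk1 1451190_a_at (adjusted p = 0.24), -0.14 for Marveld1 and -0.09 for Dennd5b (adjusted p = 0.211). Without 1KI array 6 that of Chtf8 was -0.04 (adjusted p = 0.628) and that of Marveld1 -0.23 (adjusted p = 0.104). Of the other probe sets, Dnajc22 1429773_at was at -0.20 (limma adjusted p = 0.0859) and passed with equal array medians (-0.22, adjusted p = 0.0493) or without 1KI array 1 (adjusted p = 0.0446). Without 1KI array 6, at 9.55 where the other 9 were 10.44 or higher, it was -0.09 (adjusted p = 0.133).

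**Figure D4:**
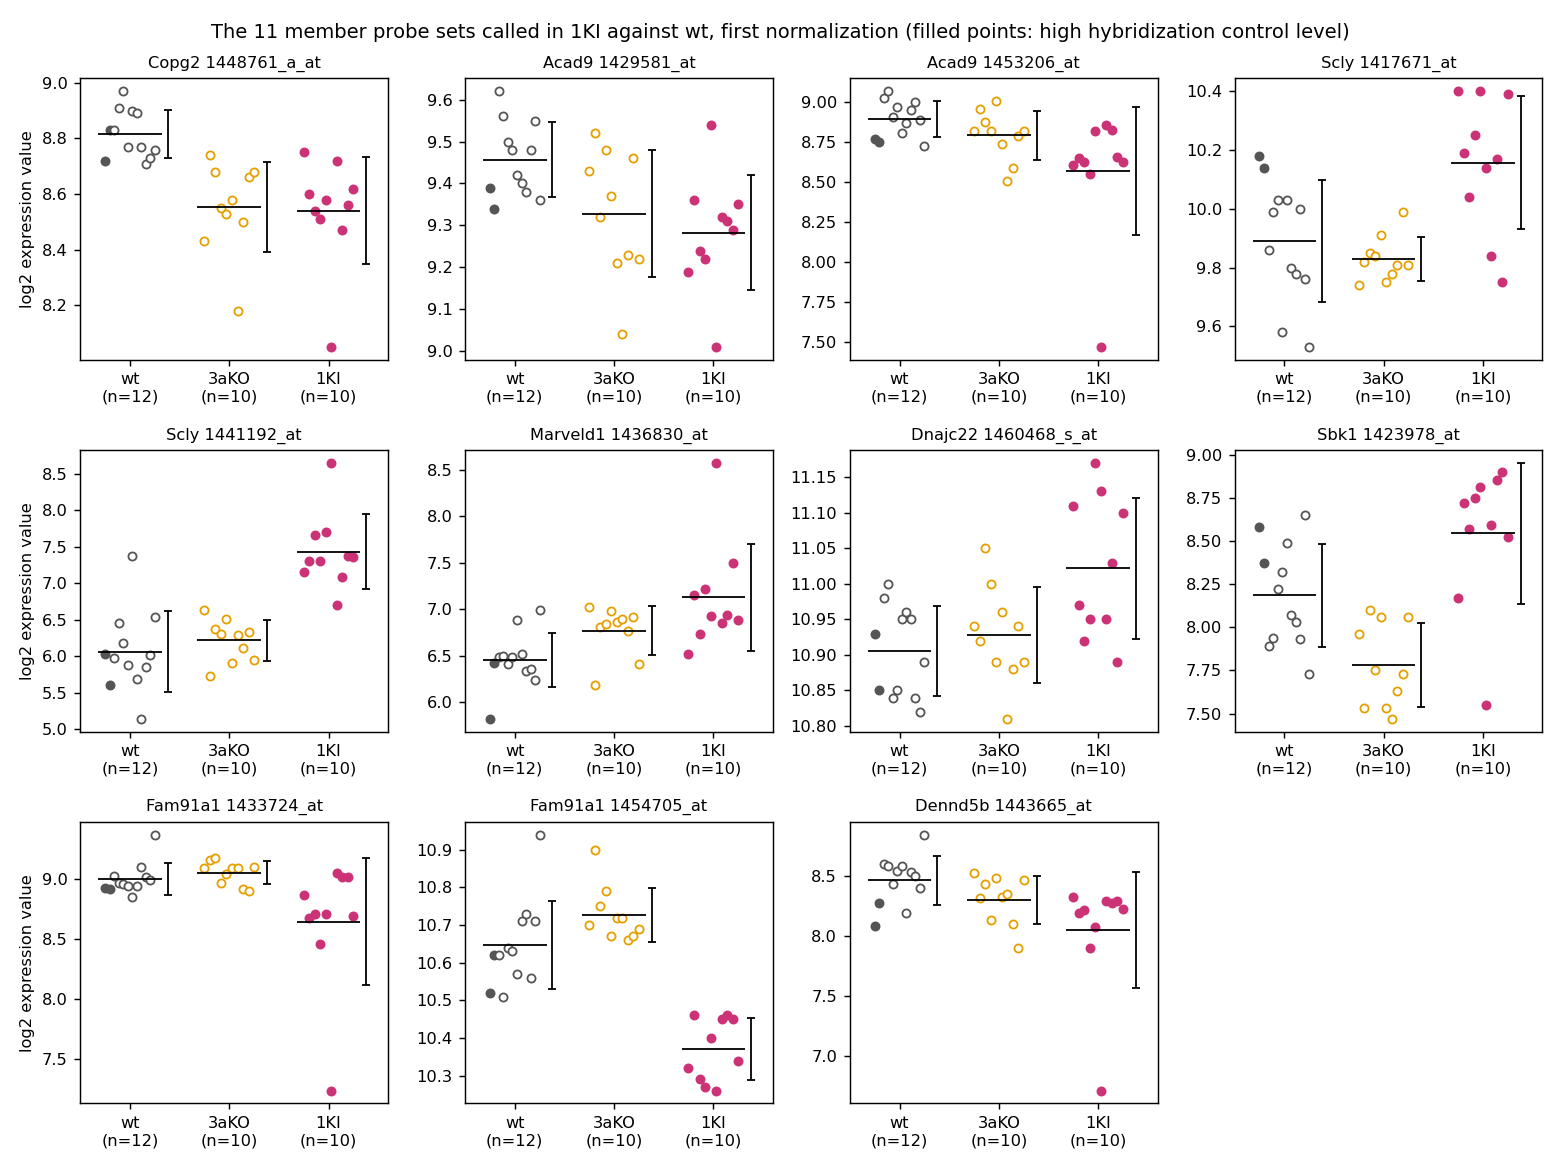
Log2 expression values of the 11 member probe sets that passed in 1KI against wt, in wt, 3aKO and 1KI. Each point is 1 array, the line is the mean and the bar the SD, and filled points have a high level of the hybridization controls (2 of 12 wt, all 1KI). Scly 1441192_at and Fam91a1 1454705_at separate 1KI from 3aKO fully, and 1KI array 6 lies far from its group in several panels.

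Of the 11 calls, 2 remained with a block for the hybridization control level, Scly 1441192_at and Marveld1 1436830_at. That fit sets the 10 1KI arrays against 2 wt arrays, with larger errors, and most differences were smaller too. Scly 1417671_at went from 0.27 to -0.003, Sbk1 1423978_at from 0.36 to 0.07, Dennd5b 1443665_at from -0.41 to -0.13 and Acad9 1429581_at from -0.17 to -0.08. Acad9 1453206_at went from -0.32 to -0.19, Fam91a1 1433724_at from -0.36 to -0.28, Fam91a1 1454705_at from -0.28 to -0.20 and Copg2 from -0.28 to -0.24, while Dnajc22 1460468_s_at was at 0.13 in place of 0.12. Their limma adjusted p ran from 0.139 to 0.994. In 1KI against 3aKO 6 of the 24 probe sets passed (3 higher, 3 lower), where 32% of all probe sets did (13.5% higher, 18.5% lower), with 3856 higher and 8292 lower calls at equal array medians in place of 4721 and 6470. They were both Scly probe sets, both Fam91a1 probe sets, Sbk1 1423978_at and Dennd5b 1455340_at (-0.15, limma adjusted p = 0.0334). Fam91a1 1433724_at was at -0.41 (adjusted p = 0.016), or -0.25 without 1KI array 6. Dennd5b 1455340_at was lost on leaving out 3aKO array 1, 4, 5 or 10 or 1KI array 4, 7 or 8. Without 1KI array 6, Chtf8 (0.16, adjusted p = 0.0122) and Retreg3 1431926_a_at (0.26, adjusted p = 0.000559) passed as well, as did Marveld1 1436830_at without 1KI array 1 (0.43, adjusted p = 0.046) and Dnajc22 1460468_s_at without 3aKO array 3 or 1KI array 9. With a block for the hybridization control level 1 of the 6 remained, Scly 1441192_at at 1.50 (limma adjusted p = 0.0264).

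The E2f3a knock-out was fitted in the same way. In 3aKO against wt 0 of the 24 probe sets passed in limma's test and 7 had an unadjusted p under 0.05. Of all 34945 probe sets 0.424% passed, and 4105 had an unadjusted p under 0.05. The wt and 3aKO arrays took part in the choice of the genes, so the p-values of the 24 are a description and no independent test. Copg2 was nearest to the threshold, with a difference of -0.26 (SE 0.064, limma adjusted p = 0.0565) and 10 of 10 arrays below the wt mean, and it passed without 3aKO array 2 (adjusted p = 0.0474) or 3aKO array 10 (adjusted p = 0.0418). Both Sbk1 probe sets were lower without passing, at -0.42 (adjusted p = 0.113) and -0.40 (adjusted p = 0.181). Retreg3 1431926_a_at was at -0.25 (limma adjusted p = 0.178) and Chtf8 at -0.20 (adjusted p = 0.318). With array weights in the fit 743 of all probe sets passed, and 6 of the 24. The 6 were Copg2, Chtf8, both probe sets of Sbk1 and the 2 brighter ones of Retreg3.

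Other genes of the same pathways were taken from lists, with the brightest probe set of each gene, and read against the 14.5% higher and 15.7% lower of all probe sets in 3bKI and the 12.1% and 17.1% in 1KI, each against wt. The lists were chosen with earlier results of these data known, and no list is set apart from other genes by a test. Of the 97 genes on these 10 lists, 0 passed in 3aKO against wt in limma's test and 10 had an unadjusted p under 0.05. Of all 34945 probe sets, 148 passed and 4105 had an unadjusted p under 0.05.

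Of 9 other genes of selective autophagy of the endoplasmic reticulum, 2 rose and 2 fell in 3bKI and again 2 rose and 2 fell in 1KI. Ccpg1, a receptor of this autophagy, fell by 0.61 in 3bKI (limma adjusted p = 5.43e-06), Sec62 fell by 0.24 (adjusted p = 0.000858), and Tex264, another receptor, rose by 0.27 (adjusted p = 0.0115). Of 8 other COPI subunits, which form 1 coat with Copg2, 1 rose in 3bKI (Cope by 0.29, limma adjusted p = 8.6e-05) and 1 fell in 1KI (Copz1 by 0.20, adjusted p = 0.0468).

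Of 6 genes of golgin tethering, 2 rose and 3 fell in 3bKI, where Wdr11, which forms a complex with Fam91a1, fell by 0.28 (limma adjusted p = 0.000506) and Washc1 rose by 0.49 (adjusted p = 0.000139), and 2 rose in 1KI, among them Golga1, a golgin, by 0.27 (adjusted p = 0.00183). Of 14 DENN domain genes 2 rose and 5 fell in 3bKI and 1 rose and 5 fell in 1KI. Dennd4a fell by 0.51 in 3bKI (limma adjusted p = 2.6e-06) and by 0.43 in 1KI (adjusted p = 6.79e-07), and Dennd6a by 0.57 (adjusted p = 1.57e-05) and 0.35 (adjusted p = 0.000529). Of 8 MARVEL domain genes 2 rose in 3bKI, Cmtm6 by 0.38 (limma adjusted p = 0.0012) and Pllp by 0.36 (adjusted p = 0.00189), and 1 rose and 1 fell in 1KI, where Marveld3, a tight junction protein, rose by 0.69 (adjusted p = 1.49e-06).

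Of 10 other acyl-CoA dehydrogenases, enzymes of fatty acid and amino acid oxidation, 3 rose and 5 fell in 3bKI and 2 fell in 1KI. Acad10 rose by 0.57 in 3bKI (limma adjusted p = 3.54e-06), while Acadvl, the enzyme for very long chains, fell by 0.31 (adjusted p = 9.7e-06) and Acad11 by 0.34 (adjusted p = 1.34e-05). Of 14 other complex I assembly factors 2 rose and 3 fell in 3bKI and 2 fell in 1KI. Ndufaf7 fell by 0.22 in 3bKI (limma adjusted p = 0.00616) and by 0.33 in 1KI (adjusted p = 4.7e-05). Of 12 genes of selenocysteine use 1 rose and 4 fell in each knock-in. Sephs2, which makes the selenium donor from the selenium that Scly frees, fell by 0.58 in 3bKI (limma adjusted p = 6.22e-07), and Pstk and Trnau1ap, which serve selenocysteine tRNA, fell by 0.30 (adjusted p = 5.44e-05) and 0.28 (adjusted p = 2.39e-05) in 1KI.

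Of 6 other subunits of the CTF18 clamp loader 0 passed in 3bKI in limma's test (1 at an unadjusted p under 0.05), where Chtf8 was higher, and 2 fell in 1KI, Rfc3 by 0.72 (adjusted p = 0.000407) and Rfc4 by 0.55 (adjusted p = 0.0475). Of 10 E2F and DP genes 2 rose and 3 fell in 3bKI and 1 fell in 1KI. E2f4 rose by 0.34 (limma adjusted p = 0.000115), and Tfdp2 and E2f8, a repressor of the family, fell by 0.40 (adjusted p = 0.000215) and 0.84 (adjusted p = 0.00256) in 3bKI. In 1KI Tfdp2 fell by 0.18 (limma adjusted p = 0.0264).

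Over the 32 arrays of the first normalization, with each group mean removed and the brightest probe set of each gene, Pearson's r between the genes had a median of 0.12 over 45 pairs. It ran from -0.54 (Scly and Fam91a1) to 0.82 (Retreg3 and Chtf8), and the latter was 0.54 without 1KI array 6. Among probe sets above the median signal, the gene most like Scly by the same r was Atp6v0a1 (0.88), that most like Marveld1 was Usp2 (0.88), that most like Fam91a1 was Rasa1 (0.82), and that most like Chtf8 was Pcyt1a (0.90, or 0.54 without 1KI array 6). The others were Mfsd1 for Copg2 (0.80), Lcmt2 for Acad9 (0.77), Gm5817 for Dnajc22 (0.71), Ncoa2 for Dennd5b (0.70) and Golim4 for Sbk1 (0.69). Without 1KI array 6 the gene most alike remained the same for Copg2, Marveld1 and Fam91a1. For the other 7 it became Nrp1 (Retreg3), Marchf7 (Acad9), Ctdsp1 (Scly), Aqp8 (Dnajc22), Ahcyl1 (Sbk1), Sergef (Chtf8) and Pxn (Dennd5b). Points share arrays and so also RNA quality and scaling, and these values are a description.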

How the data were processed

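Liver RNA (5 ug per array, per the labels' protocols) was hybridized to Affymetrix arrays of 45101 probe sets. The authors deposited log2 expression values in 2 normalizations (37 arrays in 59 columns, values 2.13 to 15.06). The log2 scale was read from the values, and no source used here gives the normalization method or detection calls. Arrays have no read depth, so their number limits the precision. Probe sets were named from the platform's annotation. Of all, 34945 had 1 symbol and were tested, 932 had several, 9160 had none and 64 were controls.

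limma 3.58.1 (R 4.3.3; lmFit and eBayes) was fitted on all arrays of a normalization, with Benjamini-Hochberg adjustment and a threshold of 0.05. 1KI was tested in the first normalization and 3bKI in the second. 3aKO against wt was tested in the first. The code was tested on simulated data. Group differences are differences of log2 values, and a fold is 2 to that power in the deposited unit. The hybridization control level is the mean of 18 probe sets, and the poly-A level that of 24.

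The 10 genes, the gene lists and the tests were chosen with earlier results of these data known. Named genes were the 10 with every probe set of theirs, for each the gene most alike in its brightest probe set, and up to 3 genes per list with the smallest p in either knock-in. Alternatives were fits of 2 groups only, a variance trend, a filter at the median signal, 1 probe set per gene, no _x_at probe sets, equal array medians, further quantile normalization, weights per array, the hybridization control level as a block, RNA integrity or a sex index as covariates, a replicate block, each array left out, and the second normalization for 3aKO against wt. The hybridization block without 1KI array 6 was chosen after seeing the data. Promoter sequences came from RefSeq (GRCm38.p6).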

Additional observations from a re-analysis of the deposited data

Results flagged for a closer look

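Dixon's criterion was applied to each group of 5 or 10 arrays on each of the 24 probe sets, 96 groups in all, and marked 15, where chance marks about 1 in 20. Array 6 of 1KI was the extreme array in 11 of the 15. It was the lowest of its group for Retreg3 1424159_at (8.71) and 1431926_a_at (7.55), Copg2 (8.05), Acad9 1453206_at (7.47), Dnajc22 1429773_at (9.55), Chtf8 (7.63), Fam91a1 1433724_at (7.24), and Dennd5b 1443665_at (6.71) and 1456422_at (7.07). It was the highest for Scly 1441192_at (8.65) and Marveld1 1436830_at (8.57). The same array had the largest difference between 3′ and 5′ probe sets, 1.75, and its part in these values was not tested.

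The other 4 groups with an array far from the rest held Chtf8 in 3bKI, where array 2 was lowest at 9.12, and Fam91a1 1454705_at in 3aKO of the second normalization, where array 2 was highest at 10.88. Dennd5b 1456422_at had array 9 of 3aKO lowest in both normalizations, at 7.60 in the first and 7.57 in the second.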

How the results depend on the processing

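With a block for the hybridization control level, probe sets called went from 10219 to 2406 in 1KI against wt, from 11191 to 1476 in 1KI against 3aKO, from 148 to 82 in 3aKO against wt, from 10546 to 3638 in 3bKI against wt and from 12182 to 2847 in 3bKI against 3aKO, and members called from 11 to 2 and from 6 to 1 in the 1KI comparisons. Without 1KI array 6 as well, the 1KI counts were 2659 (2 members) and 1992 (1 member). Scly 1417671_at in 1KI against wt turned to -0.003 and -0.0011 under these fits, and Dennd5b 1443665_at to 0.0206 under the second. With RNA integrity as a covariate the counts were 254 (2 members) in 3aKO against wt, 1151 for 3bKI against wt and 210 for it against 3aKO, 11 members passed in 1KI against 3aKO, and the dim Retreg3 1447884_x_at turned to 0.18 (3bKI against wt) and 0.21 (3bKI against 3aKO). The integrity values of 3bKI overlapped neither wt nor 3aKO, so in the 3bKI fits that covariate and the genotype can hardly be told apart. The causes were not tested. With 1 probe set per gene, which tests fewer, the counts were 5026 (5 members), 5636 (3), 32, 5318 and 6218. In 3aKO against wt, fits of 2 groups only gave 252 (3 members), array weights 743 (6), and 1 member passed with the median filter, further quantile normalization or a sex index, and 2 in the second normalization. Fits of 2 groups only also lost the 1KI calls of Sbk1 1423978_at (adjusted p = 0.0606) and Fam91a1 1433724_at (0.0733) against wt, and of Fam91a1 1433724_at (0.0522) and Dennd5b 1455340_at (0.0664) against 3aKO.

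Each array left out in turn gave 9308 to 10499 calls (9 to 12 members) in 1KI against wt, 10191 to 11475 (5 to 8) in 1KI against 3aKO, 84 to 232 (0 to 1) in 3aKO against wt, 9662 to 9860 in 3bKI against wt and 10942 to 11729 in 3bKI against 3aKO. Scly 1441192_at in 1KI, and Marveld1 1436830_at in 1KI against wt, were called under every alternative run.

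The replicate numbers did not pair the arrays: same-numbered arrays correlated in their deviations from group means at -0.34 to 0.32. The pairs over 0.1 were 6 of 10 for wt and 3aKO, 3 of 10 for wt and 1KI, 7 of 10 for 3aKO and 1KI, 2 of 5 for wt and 3bKI and 1 of 5 for 3aKO and 3bKI, and 1, 2, 4, 1 and 1 arrays were best with their own number. With the replicate block the counts were 9200 (8 members), 11173 (6), 79 (0), 8797 and 11887, in the order above.

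3bKI has 5 arrays, none with the low hybridization control level, and only 2 wt arrays share its level. Whether a dim probe set was detected is not known. 1KI and 3bKI were normalized separately, so their levels were not compared.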
